A study of Mus musculus with 19 samples.

Results

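The 9 genes described here take dietary sugar through the absorptive cells of the small intestine: the disaccharidases Sis, Mgam, Lct and Treh, the sugar transporters Slc5a1, Slc2a2 and Slc2a5, and the fructolysis enzymes Khk and Tkfc. They were chosen by name for their place in this pathway, with earlier results of these data known, and each matched 1 gene ID by its symbol. All 9 were found among the 55487 genes listed in the files, and all 9 were among the 17875 genes with enough counts to be tested.

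RNA was sequenced from crypts of the proximal part of the small intestine of 19 C57BL/6 mice, 1 library per mouse. The mice were wild type (NT+/+) or lacked the gut peptide hormone neurotensin (NT-/-), and were either fed standard chow ad libitum (AL) or fasted for 48 hours with water (Fast). There were 5 NT+/+ AL, 4 NT-/- AL, 5 NT+/+ Fast and 5 NT-/- Fast mice, of both sexes, and the controls were sex- and age-matched littermates. The study asked how neurotensin acts on crypts when nutrients are plentiful and when they are withheld. Fasting was not crossed with any sugar load, so the mice differ in all nutrients at once. The crypts were released with EDTA and were not sorted, and the study also used mice that carry an Lgr5-EGFP reporter, which the labels neither give nor deny for these 19.

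Values are CPM (counts scaled to the library total) on library sizes scaled by edgeR's TMM method, unless TPM (which also divide by transcript length) are named, and values of single mice are given in the order of their replicate numbers. The total count per mouse was between 9059457 and 35068711 (median 18541819), and the least abundant of the 9 genes, Slc2a5, had between 340 and 2193 counts per mouse. Nts, which encodes neurotensin, was at 4.98 to 8.59 CPM in the 10 NT+/+ mice and at 0.144 to 0.793 CPM in the 9 NT-/- mice. The range for NT+/+ mice includes 1 fasted mouse, NT+/+ Fast 5, whose title says NT+/+ and whose genotype label says NT-/-. That mouse was grouped by its title, and its Nts level, at least 4.98 CPM, was above that of all 9 NT-/- mice. Fits below that count it as NT-/- follow its genotype label and not its Nts level. In 1 library, NT+/+ AL 1, 11.5% of all counts fell on CT010467.1, against at most 2.94% on any single gene in the other 18. This library also had the lowest value of its group for 8 of the 9 sugar genes.

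Intestinal sugar digestion ends at the brush border, where membrane-bound disaccharidases of the enterocyte cut sucrose, starch fragments, lactose and trehalose into monosaccharides. Glucose and galactose then enter with sodium through SGLT1, the product of Slc5a1. Fructose enters through GLUT5, the product of Slc2a5, and GLUT2, the product of Slc2a2, passes sugars on across the basolateral membrane. Inside the cell, ketohexokinase (Khk) phosphorylates fructose, and triokinase (Tkfc) later phosphorylates the glyceraldehyde that is released from the product. Along the crypt-villus axis these genes belong to differentiated absorptive cells, not to stem or dividing cells.

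Positions are those of the GENCODE annotation of GRCm38. Slc5a1 (ENSMUSG00000011034) is on the plus strand at chr5:33104219-33162870 and Khk (ENSMUSG00000029162) on the plus strand at chr5:30921431-30931248. Slc2a2 (ENSMUSG00000027690) is on the plus strand at chr3:28697903-28731359, and Sis (ENSMUSG00000027790) on the minus strand of the same chromosome at chr3:72888557-72967863. Slc2a5 (ENSMUSG00000028976) is at chr4:150119283-150144169 and Mgam (ENSMUSG00000068587) at chr6:40628831-40769123, both on the plus strand. Treh (ENSMUSG00000032098) is on the plus strand at chr9:44673233-44686305, Lct (ENSMUSG00000026354) on the minus strand at chr1:128284756-128328318 and Tkfc (ENSMUSG00000034371) on the minus strand at chr19:10587791-10605654.

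Bases just before the RefSeq start site are shown for 5 of the genes to set the fructose carrier Slc2a5, which had the largest fold changes below, beside the glucose carrier and 3 disaccharidases. Each is read 5′ to 3′ on the gene's own strand from RefSeq (GRCm38.p6), with capitals for matches to 3 short motifs searched on both strands: CACGTG, the E-box core found in carbohydrate response elements, TTTATT, a core bound by CDX factors, and AGATAA, a core bound by GATA factors. For Slc2a5 the stretch is chr4:150119094-150119282 (plus strand), which ends before the first start site in the GENCODE annotation. The others are Slc5a1 at chr5:33104049-33104218 (plus strand), Mgam at chr6:40628661-40628830 (plus strand), Sis at chr3:72967864-72968033 (minus strand) and Lct at chr1:128328319-128328488 (minus strand).
Slc2a5: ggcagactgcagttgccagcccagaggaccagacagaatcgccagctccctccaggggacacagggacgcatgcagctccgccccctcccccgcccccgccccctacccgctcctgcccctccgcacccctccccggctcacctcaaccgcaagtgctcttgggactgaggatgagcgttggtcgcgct
Slc5a1: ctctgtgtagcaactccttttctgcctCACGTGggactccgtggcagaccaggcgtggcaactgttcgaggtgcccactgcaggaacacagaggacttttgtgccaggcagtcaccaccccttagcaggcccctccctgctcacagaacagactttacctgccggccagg
Mgam: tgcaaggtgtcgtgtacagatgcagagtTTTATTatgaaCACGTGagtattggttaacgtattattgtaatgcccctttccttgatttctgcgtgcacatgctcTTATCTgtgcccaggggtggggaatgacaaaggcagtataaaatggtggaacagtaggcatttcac
Sis: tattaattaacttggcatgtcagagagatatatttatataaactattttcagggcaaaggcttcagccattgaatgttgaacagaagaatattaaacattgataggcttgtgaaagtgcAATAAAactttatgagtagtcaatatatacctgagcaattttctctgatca
Lct: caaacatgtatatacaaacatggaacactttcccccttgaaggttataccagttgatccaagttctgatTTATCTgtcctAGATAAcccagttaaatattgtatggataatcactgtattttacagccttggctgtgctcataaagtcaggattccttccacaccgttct

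Over windows from 250 bases before to 50 after the RefSeq start site, CACGTG was found in Slc5a1, Mgam and Khk. The matches were 143, 131 and 71 bases before that start. For Khk and Tkfc the RefSeq start lies 128 and 1396 bases after the first GENCODE start. The Khk match and the whole Tkfc window are therefore inside the annotated genes. TTTATT was found in Sis and Mgam, and AGATAA in Lct and Mgam. None of the 3 motifs was found in the windows of Slc2a5, Slc2a2, Treh or Tkfc. For comparison, CACGTG was in 7.15% of all 32851 promoter windows of that length, TTTATT in 19.6% and AGATAA in 11.2%. The motifs do not overlap one another in the printed stretches, and a match in letters is a description of the sequence and not a bound site.

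Fasting raised all 9 sugar genes in NT-/- crypts and 5 of them in NT+/+ crypts. In NT+/+ mice Slc2a5, Khk, Treh, Slc5a1 and Tkfc rose, with fold changes from 1.28 to 2.36, and Slc2a2, Sis, Mgam and Lct did not pass the test. In NT-/- mice the fold changes ran from 1.63 for Slc5a1 to 3.12 for Slc2a5. The count of 5 of 9 stands beside 11.2% of all tested genes that were called higher with fasting in NT+/+ mice, and the count of 9 of 9 beside 12.5% in NT-/- mice (edgeR's quasi-likelihood test, adjusted p under 0.05). The 9 genes were chosen with earlier results of these data known, so these counts are a description. The median log2 fold change of the 9 was 0.50 in NT+/+ and 0.86 in NT-/- mice, where the medians of all tested genes were -0.01 and -0.02. Of 12 other enterocyte markers, 8 rose in NT+/+ and 10 in NT-/- mice, and their summed level was 4923 to 11126 CPM in fed and 10220.0 to 23623 CPM in fasted mice. In crypt pools a change in the number of enterocytes and a change in the RNA of each cannot be told apart, and the part of enterocyte content in these results was not tested.

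Calls in NT+/+ mice depended on single mice for 3 of the 5 genes. Slc2a5 and Khk were called in all 29 ways of fitting the data, Tkfc in 23, Treh in 22 and Slc5a1 in 15. Only Slc2a5 and Khk remained without NT+/+ AL 1, the library with many counts on CT010467.1, and the count was also 2 without NT+/+ Fast 2, 3 or 4 and in a fit of the 2 NT+/+ groups alone. It was 3 without NT+/+ AL 2 or AL 3 and 7 without NT+/+ Fast 1. In NT-/- mice between 7 and 9 genes were called in every fit, with Lct the least steady at 16 of 29.

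**Figure D1:**
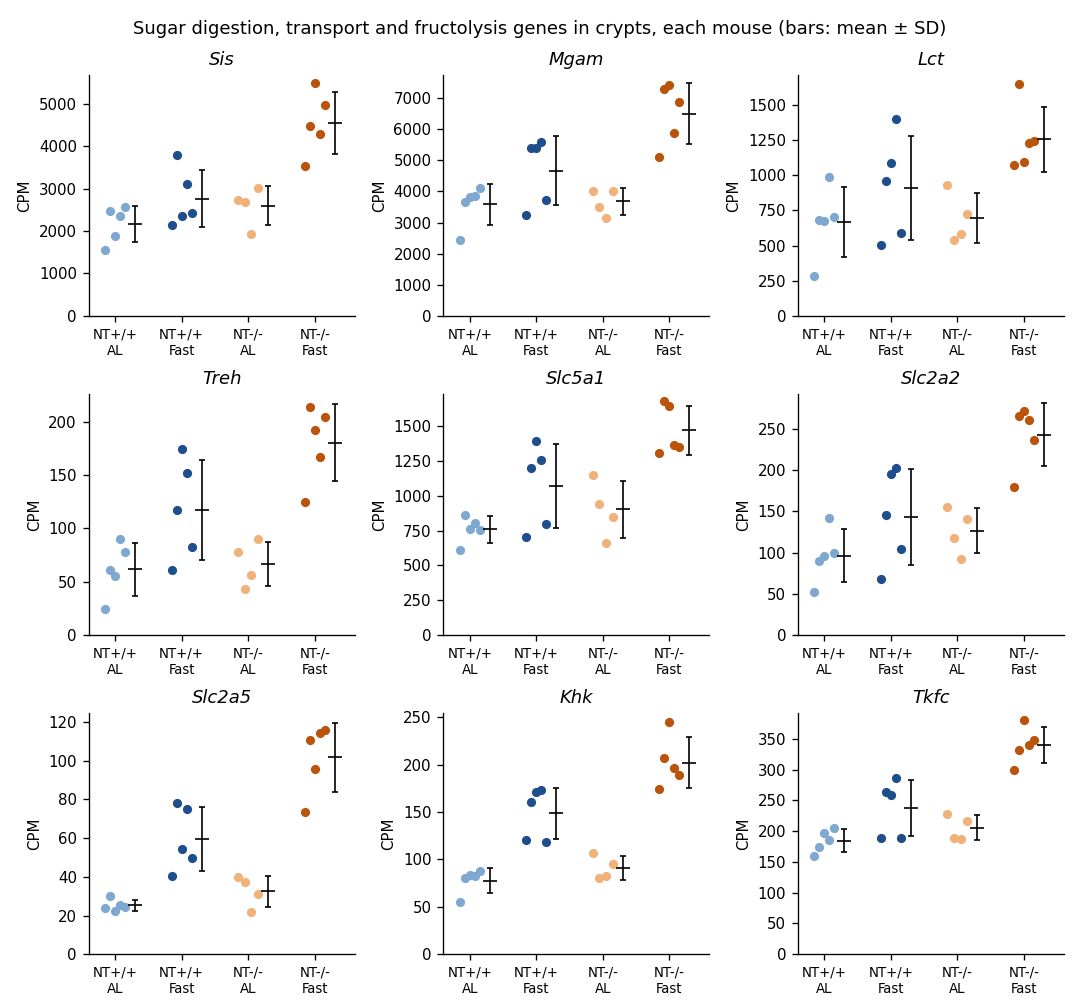
Each panel plots 1 gene in CPM (vertical axis, from 0) for every mouse of the 4 groups, with the mean and SD beside the points. Slc2a5 and Khk of the fasted mice lie above those of the fed mice in both genotypes, and the other 7 genes overlap between diets in NT+/+ but not in NT-/- mice.

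Sucrase-isomaltase and maltase-glucoamylase were the most abundant of the disaccharidases in TPM and did not pass the test in NT+/+ mice. Sis, which cuts sucrose and isomaltose, was at 1553, 2481, 1889, 2343 and 2558 CPM in the 5 NT+/+ AL mice and at 2148, 3785, 2345, 3105 and 2435 CPM in the 5 NT+/+ Fast mice. Only Fast 2 and 4 lay above every fed NT+/+ mouse. In the NT-/- groups Sis was at 2729, 2695, 1932 and 3009 CPM fed and at 3535, 4474, 5485, 4278 and 4964 CPM fasted. There the groups did not overlap, and the lowest fasted mouse, NT-/- Fast 1, was above the highest fed one. The change was 1.75-fold in NT-/- mice (log2 fold change 0.81, SE 0.19, edgeR adjusted p = 0.0036) and 1.28-fold in NT+/+ mice (log2 fold change 0.35, SE 0.18, edgeR adjusted p = 0.163).

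Mgam, which trims starch fragments to glucose, had fold changes near those of Sis. It spanned 2443 to 4119.8 CPM in NT+/+ AL and 3247 to 5596 CPM in NT+/+ Fast mice, and 3154 to 4027 CPM in NT-/- AL and 5094 to 7408 CPM in NT-/- Fast mice. The ranges overlap in NT+/+ and are apart in NT-/- mice. Its fold change was 1.30 in NT+/+ (edgeR adjusted p = 0.115) and 1.77 in NT-/- mice (edgeR adjusted p = 0.00248).

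Lactase passed the test by little in NT-/- mice and not in NT+/+ mice. Lct, which cuts the sugar of milk and is highest before weaning, had means of 665 ± 250.2 CPM (SD, n = 5) in NT+/+ AL, 909.7 ± 368 CPM (n = 5) in NT+/+ Fast, 694 ± 178 CPM (n = 4) in NT-/- AL and 1257 ± 231 CPM (n = 5) in NT-/- Fast mice. In NT+/+ AL 1 it was at 283 CPM, under the other 4 fed NT+/+ mice, which began at 673 CPM. The log2 fold change was 0.45 in NT+/+ mice (95% interval -0.14 to 1.05) and 0.86 in NT-/- mice (95% interval 0.22 to 1.497), with edgeR adjusted p values of 0.271 and 0.0427.

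Trehalase, the least abundant of the 4 disaccharidases in TPM, had the largest fold change among them. Treh, which splits the fungal and insect sugar trehalose, was at 24.0, 60.6, 54.9, 90.3 and 77.5 CPM in NT+/+ AL mice and at 61.4, 117, 174, 152 and 82.4 CPM in NT+/+ Fast mice. Fast 2, 3 and 4 lay above every fed NT+/+ mouse, and Fast 1 and 5 did not. Among NT-/- mice it was at 77.6, 43.0, 56.0 and 89.8 CPM fed and 125, 214, 193, 167 and 204 CPM fasted, with no overlap. The rise was 1.91-fold in NT+/+ (log2 fold change 0.93, SE 0.30, edgeR adjusted p = 0.0322) and 2.71-fold in NT-/- mice (log2 fold change 1.44, SE 0.33, edgeR adjusted p = 0.00322). Treh overlaps Phldb1 on the opposite strand, and without the strand setting of the counting their reads cannot be told apart. Phldb1 fell, with log2 fold changes of -0.53 and -0.91 in NT+/+ and NT-/- mice (edgeR adjusted p = 0.00358 and 4.61e-05).

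Of the transporters, the glucose and galactose carrier Slc5a1 was the most abundant in TPM and had the smallest fold change. Its values were 609, 861, 761, 808 and 755 CPM in NT+/+ AL mice and 704, 1201, 1392, 1258 and 801 CPM in NT+/+ Fast mice. NT+/+ Fast 1 and 5 lay within the range of the fed mice, and the other 3 lay above it. NT-/- values were 1154, 945, 663 and 848 CPM fed and 1312, 1679, 1648, 1364 and 1353 CPM fasted, again without overlap. The change was 1.41-fold in NT+/+ (log2 fold change 0.50, SE 0.17, edgeR adjusted p = 0.0463) and 1.63-fold in NT-/- mice (log2 fold change 0.70, SE 0.19, edgeR adjusted p = 0.0087).

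The basolateral carrier Slc2a2 ranged over 52.2 to 142 CPM in NT+/+ AL, 67.4 to 202 CPM in NT+/+ Fast, 92.7 to 155 CPM in NT-/- AL and 179 to 272 CPM in NT-/- Fast mice. NT+/+ Fast 1 was below 4 of the 5 fed NT+/+ mice. Its fold change of 1.49 in NT+/+ mice did not pass (edgeR adjusted p = 0.121), and that of 1.92 in NT-/- mice did (edgeR adjusted p = 0.0175).

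The fructose transporter Slc2a5 was the lowest of the 9 genes in TPM and had the largest fold change of the 9 with fasting in both genotypes. It was at 23.9, 30.0, 22.5, 25.6 and 24.4 CPM in NT+/+ AL mice and at 40.6, 78.1, 54.4, 75.3 and 49.8 CPM in NT+/+ Fast mice. In NT-/- AL mice it was at 39.8, 37.3, 22.0 and 31.1 CPM and in NT-/- Fast mice at 73.4, 111, 95.6, 114 and 116 CPM. All 10 fasted mice lay above all 9 fed mice, whose highest value was 39.8 CPM. The mean rose from 25.3 ± 2.88 CPM (SD, n = 5) to 59.6 ± 16.4 CPM (n = 5) in NT+/+ mice (log2 fold change 1.24, SE 0.18, edgeR adjusted p = 7.60e-05). In NT-/- mice it rose from 32.6 ± 7.93 CPM (n = 4) to 102 ± 17.8 CPM (n = 5) (log2 fold change 1.64, SE 0.19, edgeR adjusted p = 6.65e-06).

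Ketohexokinase, the entry step of fructose breakdown, also rose without overlap. Khk was at 55.1, 80.2, 83.7, 82.2 and 87.5 CPM in NT+/+ AL mice and at 121, 161, 171, 173 and 119 CPM in NT+/+ Fast mice, and at 107, 79.9, 82.6 and 94.97 CPM in NT-/- AL and 174, 207, 245, 196 and 189 CPM in NT-/- Fast mice. The lowest fasted mouse of either genotype, at 119 CPM, was above the highest fed mouse, at 107 CPM. This was a 1.91-fold rise in NT+/+ (log2 fold change 0.94, SE 0.14, edgeR adjusted p = 7.26e-05) and a 2.22-fold rise in NT-/- mice (log2 fold change 1.15, SE 0.15, edgeR adjusted p = 1.50e-05).

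Tkfc, which acts later in the same pathway, rose by less. Its values were 160.4, 175, 198, 186 and 205 CPM in NT+/+ AL mice and 189, 264, 259, 287 and 189 CPM in NT+/+ Fast mice, where Fast 1 and 5 fell among the fed mice. NT-/- mice had 229, 189.6, 187 and 217 CPM fed and 300.0, 332, 381, 339.9 and 348 CPM fasted, with the groups apart. The fold change was 1.28 in NT+/+ (log2 fold change 0.36, SE 0.11, edgeR adjusted p = 0.0264) and 1.65 in NT-/- mice (log2 fold change 0.73, SE 0.12, edgeR adjusted p = 0.000239). Tkfc overlaps the more abundant Ddb1 on the opposite strand, and without the strand setting their reads cannot be told apart. Ddb1 had log2 fold changes of -0.12 and -0.11 with fasting, neither past the threshold (edgeR adjusted p = 0.305 and 0.370).

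Counted over the 9 genes, every fasted mouse was above every fed mouse for 2 genes in NT+/+ mice, Slc2a5 and Khk, where 7.63% of all tested genes had that pattern. Among NT-/- mice the count was 9 of 9, where 10.5% of all tested genes had it. Within the NT+/+ Fast group, mice 1 and 5 held the lowest values for 8 of the 9 genes, Sis being the exception. In the NT-/- Fast group mouse 1 was lowest for 9 of 9.

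**Figure D2:**
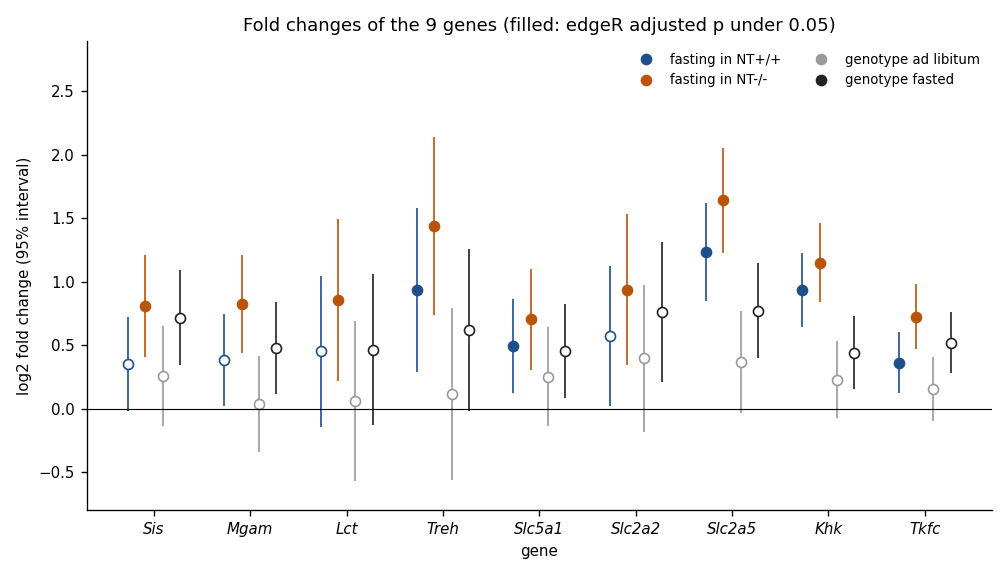
The log2 fold change of each gene (vertical axis, with its 95% interval) is plotted for fasting in each genotype and for NT-/- against NT+/+ mice in each diet, filled where the edgeR adjusted p was under 0.05. All points lie above 0, 5 are filled for fasting in NT+/+, 9 for fasting in NT-/-, and none for genotype.

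Neurotensin loss alone was associated with no called change in these genes. In fed mice the log2 fold changes of NT-/- against NT+/+ were between 0.04 (Mgam) and 0.40 (Slc2a2), with an edgeR adjusted p of 1.00 for each gene, and 0 of 9 had an unadjusted p under 0.05. Across all tested genes 1 was called, which is 0.00559%, and 299 had an unadjusted p under 0.05. For Slc2a5 the 95% interval of the log2 difference was -0.04 to 0.77, and for Sis -0.14 to 0.65. The signs of Lct, Mgam and Treh turned when single mice were left out, including NT+/+ AL 1.

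In fasted mice the 9 genes were all higher in NT-/- than in NT+/+ crypts, by log2 fold changes of 0.44 to 0.77 (median 0.52, against -0.01 for all tested genes). None passed the adjusted threshold in edgeR, and 1 gene of all those tested did, again 0.00559%. The smallest adjusted p values were 0.162 for Tkfc, 0.193 for Slc2a5 and 0.195 for Sis. The unadjusted threshold of 0.05, with a higher level in NT-/- mice, was reached by 7 of 9 in edgeR, all but Lct and Treh, where 4.67% of all tested genes reached it. For Khk and Tkfc every NT-/- Fast mouse was above every NT+/+ Fast mouse, 2 of 9 where 0.94% of all tested genes had that pattern. The summed enterocyte markers were also higher in NT-/- Fast (median 21589 CPM) than in NT+/+ Fast mice (median 17365 CPM), with overlap, and their part in this difference was not tested.

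DESeq2, run as an alternative, called 3 of the 9 higher in fasted NT-/- mice, Slc2a5, Sis and Tkfc, where it called 0.436% of all tested genes higher. The values given here for these genes are those of the edgeR fit, in which none passed. Slc2a5 averaged 102 CPM in NT-/- Fast and 59.6 CPM in NT+/+ Fast mice, a log2 fold change of 0.77 with a 95% interval of 0.40 to 1.15. Sis averaged 4547 and 2764 CPM in the same groups, a log2 fold change of 0.72 (95% interval 0.34 to 1.09). For Tkfc the means were 340.3 and 237 CPM, a log2 fold change of 0.52 (95% interval 0.28 to 0.76).

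Whether fasting acted differently in the 2 genotypes was tested as the difference between the fasting effects. That 9 genes were called in NT-/- and 5 in NT+/+ mice is not such a test. The difference was above 0 for each of the 9, from 0.21 (Slc5a1) to 0.50 (Treh) on the log2 scale, and 0 of 9 were called (edgeR adjusted p = 1.00 for each), where 0% of all tested genes were. Tkfc (0.36) alone among them passed the unadjusted threshold of 0.05 in edgeR, as did 485 of all tested genes. The 95% interval was -0.09 to 1.00 for Sis and -0.14 to 0.96 for Slc2a5. The fasting and genotype comparisons share mice, so their fold changes are not independent of one another.

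The balance between genes of one step was examined within each mouse as the log2 ratio of CPM + 1, which sets aside whatever moves both genes alike. The fructose carrier gained on the glucose carrier. The log2 ratio of Slc2a5 to Slc5a1 averaged -4.85 ± 0.16 (SD, n = 5) in NT+/+ AL and -4.14 ± 0.29 (n = 5) in NT+/+ Fast mice, a difference of 0.71 (exact two-sided permutation p = 0.0159, adjusted p = 0.0381 over 12 tests). In NT-/- mice it averaged -4.76 ± 0.10 (n = 4) and -3.85 ± 0.29 (n = 5), a difference of 0.91 (exact two-sided permutation p = 0.0159, adjusted p = 0.0381). By mouse, NT+/+ Fast 3 at -4.65 was the only fasted mouse not above all fed mice of its genotype. The call in NT+/+ mice was lost with the mouse of disagreeing labels counted as NT-/- (difference 0.67, exact two-sided permutation adjusted p = 0.0762) and, at the same adjusted p, without any of AL 2 to 5 or Fast 1, 2, 4 or 5. It stood without AL 1 or Fast 3 (exact two-sided permutation adjusted p = 0.0381).

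Within fructolysis, Khk gained on Tkfc, and the part of reads from Ddb1, which overlaps Tkfc, was not tested. The log2 ratio of Khk to Tkfc was -1.25 ± 0.16 (n = 5) in NT+/+ AL and -0.67 ± 0.05 (n = 5) in NT+/+ Fast mice, which did not overlap (difference 0.58, exact two-sided permutation p = 0.00794, adjusted p = 0.0381). The NT-/- means went from -1.17 ± 0.06 (n = 4) to -0.75 ± 0.10 (n = 5), also apart (difference 0.42, exact two-sided permutation p = 0.0159, adjusted p = 0.0381). The smallest p that these group sizes allow is 0.00794 in NT+/+ and 0.0159 in NT-/- mice. With any 1 NT-/- mouse left out no ratio passed in either genotype, since the smallest p in NT-/- mice is then higher and the 12 tests are adjusted together.

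Among the disaccharidases the ratios of Mgam and Lct to Sis differed by at most 0.11 between diets in either genotype, less than the SD between mice. The ratio of Treh to Sis rose by 0.64 in NT-/- mice (exact two-sided permutation p = 0.0159, adjusted p = 0.0381). Its difference of 0.60 in NT+/+ mice did not pass (exact two-sided permutation p = 0.119, adjusted p = 0.218). For Slc2a2 to Slc5a1 the differences were 0.07 and 0.22, with exact two-sided permutation adjusted p values of 0.914 and 0.218. From the deposited TPM in place of CPM, the same differences were 0.35 and 0.48, and that in NT-/- mice passed (exact two-sided permutation adjusted p = 0.179 and 0.0317).

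**Figure D3:**
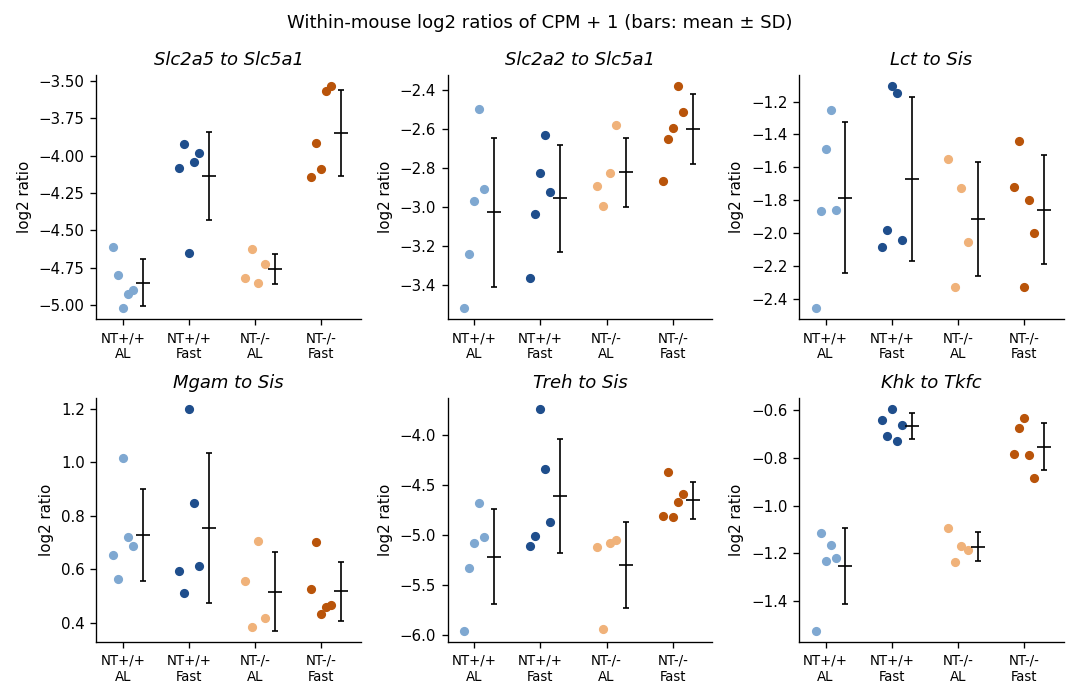
Each panel plots, for every mouse, the log2 ratio of 2 genes (vertical axis, from CPM + 1) in the 4 groups, with mean and SD. Fed and fasted mice are apart for Khk to Tkfc in both genotypes and for Slc2a5 to Slc5a1 in NT-/- mice, and they overlap for Mgam to Sis and Lct to Sis.

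Compared per transcript length with the deposited TPM, Sis and Mgam stood highest, with medians of 618 and 519.5 TPM over the 19 mice, followed by Slc5a1 (273 TPM), Lct (153 TPM), Khk (119 TPM), Tkfc (114 TPM), Treh (55.4 TPM), Slc2a2 (55.4 TPM) and Slc2a5 (21.2 TPM). The steps from Mgam to Slc5a1, from Slc5a1 to Lct, from Tkfc to Treh and from Slc2a2 to Slc2a5 had the same direction in 19 of 19 mice. For the other neighbours the order changed between mice. Sis was above Mgam in 16 of 19, including all 9 NT-/- mice, with ratios from 0.786 to 1.40. Lct was above Khk in 14, among them 4 of 4 NT-/- AL but 2 of 5 NT+/+ Fast mice, with ratios from 0.725 to 2.00. Treh was above Slc2a2 in 9, with ratios from 0.492 to 1.22. No test was run between genes. Khk and Tkfc changed places with diet: Khk was the higher of the pair in TPM in 1 of 5 NT+/+ AL and 1 of 4 NT-/- AL mice, and in 5 of 5 NT+/+ Fast and 5 of 5 NT-/- Fast mice. The part of reads from Ddb1, which overlaps Tkfc, in this order was not tested. Slc2a5 stayed last, at 14.5 ± 2.84 TPM (SD, n = 5) in NT+/+ AL and 58.6 ± 15.3 TPM (n = 5) in NT-/- Fast mice.

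The rise of the sugar genes came with a rise of other enterocyte transcripts. Of 12 enterocyte markers that are not among the 9 genes, 8 rose and none fell in NT+/+ mice, and 10 rose and none fell in NT-/- mice (median log2 fold changes 0.84 and 1.16). Fabp1, Fabp2, Apoa1 and Alpi were among those that rose in both genotypes. Krt20 (log2 fold changes 0.34 and 0.44) and Vil1 (0.26 and 0.39) passed in neither. Among all tested genes 11.2% were called higher in NT+/+ and 12.5% in NT-/- mice. Their summed level was 4923 to 10143 CPM in NT+/+ AL, 6663 to 11126 CPM in NT-/- AL, 10220.0 to 20718 CPM in NT+/+ Fast and 16829 to 23623 CPM in NT-/- Fast mice. None of the 12 was at 0 in all mice. The fasted NT+/+ mice with the lowest sugar genes, 1 and 5, also had the lowest marker sums of their group, 10220.0 and 13042 CPM.

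Dividing-cell markers went the other way. Of 7, 4 fell in NT+/+ and 6 fell in NT-/- mice, and none rose, with summed levels of 1532 to 1815 CPM in fed and 905 to 1385 CPM in fasted mice. Among all 17875 tested genes, 3862 were called in NT+/+ mice (2010 of them higher) and 4499 in NT-/- mice (2242 of them higher). The counts over these short marker lists are a description, and no list was tested as a set. Of 8 stem cell markers, 2 rose and 1 fell in NT+/+ mice, and 2 fell and none rose in NT-/- mice. Of 7 goblet cell markers, 2 fell and 1 rose in NT+/+ mice and 4 fell and 1 rose in NT-/- mice (median log2 fold changes -0.33 and -0.83). Clca1, a secreted goblet cell protein, had the largest fall, at -1.51 and -2.22 (edgeR adjusted p = 0.0093 and 0.000674). It varied widely between NT+/+ AL mice, at 1808 ± 1338 CPM (SD). Zg16 was the marker that rose, at 0.93 and 1.25 (edgeR adjusted p = 0.00648 and 0.00106). The summed level of the 7 goblet cell markers was 9300 to 15283 CPM in fed and 7676 to 11274 CPM in fasted mice. Of 7 enteroendocrine markers, 2 rose and none fell in each genotype, Chga and Sst. Stem, dividing and Paneth cell transcripts were present in every library, as the crypt label says, and so were those of enterocytes. Stroma and muscle markers summed to at most 8.79 CPM and pancreas markers to at most 0.168 CPM, with Cela3b and Pnlip at 0 in all 19 mice. Distal markers (Fabp6, Slc10a2, Slc51a, Slc51b) also differed with diet: 3 of 4 rose in NT+/+ and 2 of 4 in NT-/- mice, with Fabp6 at log2 fold changes of -0.64 and -0.68 that did not pass, with sums of 76.4 to 126 CPM fed and 102 to 206 CPM fasted. Of 4 tested proximal markers, Slc40a1, the iron exporter, fell in both genotypes (log2 fold changes -2.12 and -1.61, edgeR adjusted p = 1.54e-06 and 5.95e-05) and Onecut2 rose in NT-/- mice (log2 fold change 0.70, edgeR adjusted p = 0.0347). The part of intestinal position was not tested.

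**Figure D4:**
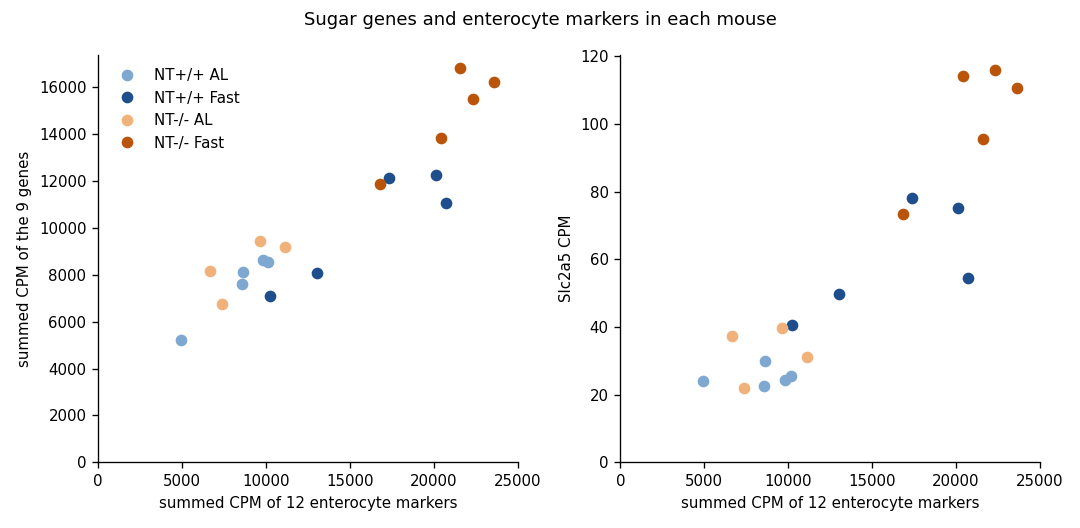
The summed CPM of the 9 genes (left) and Slc2a5 in CPM (right) are plotted against the summed CPM of 12 enterocyte markers for each of the 19 mice, coloured by group. Most fasted mice lie toward the upper right. In the left panel NT+/+ Fast 1 and 5, at 7084 and 8091 CPM, lie within the fed range on the vertical axis. NT-/- Fast mice hold the highest Slc2a5 values, up to 116 CPM.

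As a description over the same 19 mice, the log2 level of each sugar gene followed the log2 enterocyte marker sum with Pearson r from 0.82 (Sis) to 0.98 (Treh). The points share libraries and diets. After group means were removed, r was 0.98 for Treh, 0.93 for Mgam, 0.92 for Slc2a2 and for Lct, 0.88 for Khk, 0.82 for Tkfc, 0.74 for Slc5a1 and 0.67 for Sis. Slc2a5 had the lowest, 0.49. Between pairs of the 9 genes, r of such deviations was 0.42 to 0.92 (median 0.78, 36 pairs).

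The genes whose log2 CPM ran most like each member over the 19 mice were picked by Pearson r, with the r values again a description. For Sis they were Tbcel and Fbxo25 (0.95 and 0.93), for Mgam Mpp1 and Phlpp2 (0.98 and 0.98), for Lct Gm11127 and Pdzk1 (0.97 and 0.96) and for Treh Plpp1 and Slc7a15 (0.99 and 0.98). Slc5a1 ran most like Ace, a brush border peptidase, and Abcg8, a sterol exporter (0.97 and 0.96), Slc2a2 like Castor2 and Mpp1 (0.95 and 0.95), and Slc2a5 like Pbld2 and Cda (0.96 and 0.96). Cdr2 was among those of Khk (0.98) and Tmem135 among those of Tkfc (0.95).

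Beyond the 9 genes, other sugar transporters moved less evenly. Of 19 tested, 5 rose and 1 fell with fasting in NT+/+ mice and 6 rose and 1 fell in NT-/- mice. Their median log2 fold changes were 0.26 and 0.16, and 11.2% and 12.5% of all tested genes were called higher. Slc5a4b, a relative of Slc5a1, had log2 fold changes of 1.59 and 2.09 in NT+/+ and NT-/- mice (edgeR adjusted p = 0.00159 and 0.000247), and Slc2a9, a urate carrier of the GLUT family, 0.91 and 1.01 (edgeR adjusted p = 3.87e-05 and 2.04e-05). The inositol carrier Slc2a13 fell, from 8.59 ± 0.933 CPM (SD, n = 5) to 3.69 ± 1.08 CPM (n = 5) in NT+/+ mice (log2 fold changes -1.22 and -1.07 in NT+/+ and NT-/-, edgeR adjusted p = 4.14e-05 and 0.000226).

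Of 22 enzymes of fructose, galactose and hexose phosphates, 10 rose and 2 fell in NT+/+ mice and 13 rose and 4 fell in NT-/- mice. Their medians were 0.16 and 0.36, and 11.2% and 12.5% of all tested genes were called higher. The 3 with the smallest p in NT+/+ mice were Fbp1, the fructose bisphosphatase of gluconeogenesis (1.87 and 2.27), Slc37a4, which carries glucose phosphate into the endoplasmic reticulum (0.91 and 1.28), and Galk1, the galactose kinase (0.84 and 0.68), as log2 fold changes in NT+/+ and NT-/- mice. Their edgeR adjusted p values were 2.47e-08, 2.34e-05 and 8.42e-05 in NT+/+ mice and 6.79e-09, 1.07e-06 and 0.000916 in NT-/- mice.

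Most genes of a list of other brush border enzymes and proteins rose with fasting. Of 18 tested, 11 rose in NT+/+ and 15 in NT-/- mice and none fell, with medians of 0.63 and 0.85. The shares of all tested genes called higher were 11.2% and 12.5%. The list is mainly of hydrolases, but it holds the structural and adhesion proteins Vil1, Cdhr2 and Cdhr5, and it shares Alpi and Vil1 with the enterocyte markers. Enpep had log2 fold changes of 1.00 and 1.20 and Xpnpep2 1.14 and 1.29 in NT+/+ and NT-/- mice, both being peptidases of the apical membrane. Their edgeR adjusted p values were 0.00024 and 0.000832 in NT+/+ and 7.04e-05 and 0.000453 in NT-/- mice.

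Known regulators of sugar genes changed less than the brush border list, whose medians were 0.63 in NT+/+ and 0.85 in NT-/- mice. Of 16 tested, 4 rose and none fell in each genotype, with medians of 0.24 and 0.21. The transporter medians were 0.26 and 0.16 and the enzyme medians 0.16 and 0.36, so the regulators were not lowest in either genotype. Among all tested genes, 11.2% and 12.5% were called higher. Gata6 had log2 fold changes of 0.45 and 0.52 (edgeR adjusted p = 0.000159 and 6.51e-05) and Klf4 0.46 and 0.60 (0.025 and 0.00646). Mlxipl, which encodes the carbohydrate-responsive factor ChREBP and was named after its values were seen, had log2 fold changes of -0.04 and -0.15, neither past the threshold (edgeR adjusted p = 0.855 and 0.391). None of the 4 lists had a called gene in either genotype comparison.

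**Figure D5:**
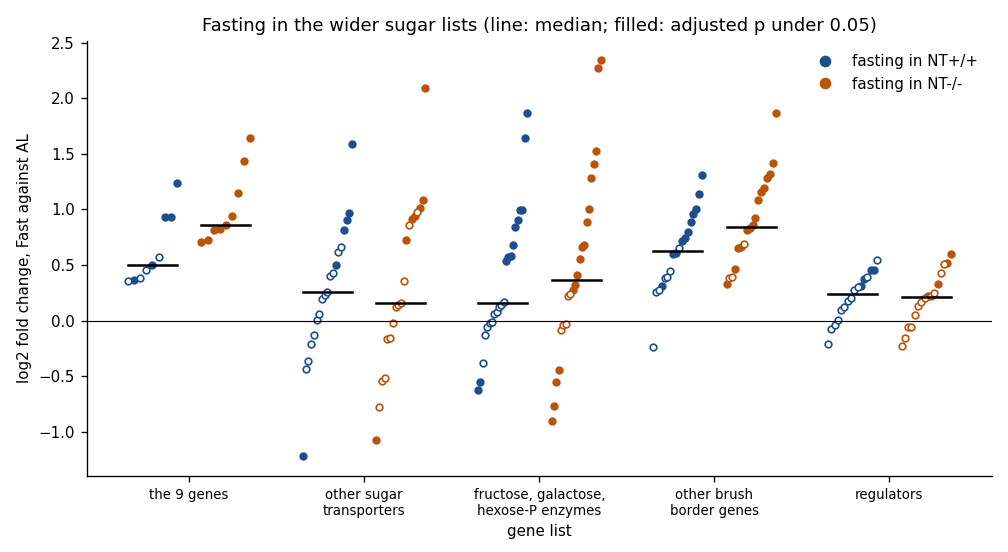
The log2 fold change with fasting (vertical axis) of each tested gene is plotted for the 9 genes and the 4 wider lists, in NT+/+ (left of each pair) and NT-/- mice (right), filled where the edgeR adjusted p was under 0.05, with a line at the median. The 9 genes and the brush border list have the highest medians, and the regulators lie between -0.23 and 0.60.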

How the data were processed

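RNA from crypts of 19 mice was depleted of ribosomal RNA and sequenced as single-end reads. The authors trimmed reads with Trimmomatic 0.39 (submitters' processing notes) and mapped them with RSEM to the Ensembl transcripts of GRCm38. They deposited for each gene the expected count, which is not normalized and shares ambiguous reads by RSEM's model, and the TPM, which divides by length and library. The RSEM version and strand setting are not given in the sources used here.

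Expected counts were rounded to whole numbers. Genes passing edgeR's filterByExpr (17875) were scaled by TMM and tested with edgeR's quasi-likelihood test (edgeR 4.0.16, R 4.3.3) with 1 coefficient for each of the 4 groups, no covariate, 15 residual degrees of freedom and a biological coefficient of variation of 18.9%. P values were adjusted by Benjamini-Hochberg over all tested genes, with a threshold of 0.05. SEs were taken from the fold changes and their F statistics (log2 fold change over root F), and 95% intervals use them with 15 degrees of freedom. Within-mouse ratios used exact two-sided permutation tests over mice (scipy 1.17.1) with a pseudocount of 1 CPM, adjusted over 12 tests. TPM was used for levels between genes and, as an alternative, for the ratios. The fit was tested on simulated data with known changes before use.

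Groups came from sample titles, each mouse being 1 replicate. The members and lists were chosen with earlier results of these data known. Text names all 9 members, the 3 genes of each wider list with the smallest p for fasting in NT+/+ mice, the 2 genes most like each member by r of log2 CPM (prior count 2), Nts as a check, genes that overlap a member, and a few others, such as Mlxipl, named after their values were seen. Some genes that this rule names, and 1 planned motif search, are not reported here. Alternatives were DESeq2 1.42.0, other filters and scaling, sex as a covariate, blocks by shared numbers, the disagreeing label, a fit of only the groups compared, and leaving out each mouse.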

Additional observations from a re-analysis of the deposited data

Results flagged for a closer look

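Within the groups of 4 or 5 mice, the 9 genes and 6 within-mouse ratios gave 60 sets of values, and 5 held a mouse far from the others. Chance alone flags about 1 in 20 such sets.

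Mgam was at 2443 CPM in NT+/+ AL 1, where the other 4 fed NT+/+ mice were at 3669 to 4120 CPM. Khk was at 55.1 CPM in the same mouse, where the others were at 80.2 to 87.5 CPM, and the log2 ratio of Khk to Tkfc was -1.52 there, where the others were at -1.23 to -1.12. NT+/+ AL 1 is also the library with 11.5% of its counts on CT010467.1. The log2 ratio of Slc2a5 to Slc5a1 was -4.65 in NT+/+ Fast 3, where the others were at -4.08 to -3.93. The log2 ratio of Treh to Sis was -5.94 in NT-/- AL 2, where the others were at -5.12 to -5.05. No cause was tested for any of these values.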

How the results depend on the processing

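The 9 alternatives that changed the fit kept the direction of all 9 genes in both fasting comparisons, and so did leaving out each of the 19 mice. With 1 mouse left out, between 2 and 7 genes were called for fasting in NT+/+ and between 7 and 9 in NT-/- mice. A fit of only the groups compared called 2 of 9 in NT+/+ mice, since Slc5a1, Treh and Tkfc missed the threshold, and the cause was not tested. For genotype in fasted mice DESeq2 called 3 of the 9 genes and 98 genes in all, where edgeR called 0 and 1. For genotype in fed mice DESeq2 called 3 genes in all, where edgeR called 1. Both of these counts were 0 with at least 10 counts required in every mouse and 0 with the mouse of disagreeing labels counted as NT-/-. Leaving out mice gave 1 to 4 called genes for genotype in fasted mice.

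Within-mouse ratios past the threshold numbered 2 of 6 in NT+/+ and 3 of 6 in NT-/- mice. The count was 4 in NT-/- mice from the deposited TPM, where Slc2a2 to Slc5a1 also passed, and 1 in NT+/+ mice with the mouse of disagreeing labels counted as NT-/-. It was 0 to 2 in NT+/+ mice and 0 to 3 in NT-/- mice with 1 mouse left out. Without an NT-/- mouse the smallest exact p in that genotype is 0.0286 (4 against 4) or 0.0357 (3 against 5), and the counts were 0 in both genotypes. Without an NT+/+ mouse Khk to Tkfc kept its call in NT+/+ mice each time, and Slc2a5 to Slc5a1 kept it only without AL 1 or Fast 3. Signs turned only in small values when 1 mouse was left out. For genotype in fed mice the log2 fold change ranged from -0.132 to 0.247 for Lct, -0.0727 to 0.105 for Mgam and -0.0882 to 0.297 for Treh. For fasting in NT+/+ mice the log2 ratio difference ranged from -0.0557 to 0.246 for Lct to Sis, -0.0857 to 0.0976 for Mgam to Sis and -0.0515 to 0.203 for Slc2a2 to Slc5a1. In NT-/- mice it ranged from -0.0806 to 0.179 for Lct to Sis and -0.0447 to 0.0649 for Mgam to Sis.

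Mice of different groups share a replicate number in their titles and a set number in their file names, with nothing in the labels on what a number stands for. Deviations from the group means correlated at 0.184 on average over 27 pairs with the same title number (lowest -0.127). Over the 108 other pairs the average was -0.0457. For the file-name number the averages were 0.227 over 27 pairs (lowest 0.0672) and -0.0565 over the 108 others. Mice that share a number were thus more alike than others, and the main fit used neither number. In these data 14 of 19 mice deviated most like mice of their own title number and 18 of 19 like those of their own file-name number. With the title number as a replicate block, 5 and 9 of the 9 genes were called for fasting in NT+/+ and NT-/- mice, and 5006 and 5657 genes in all. With the file-name number as a replicate block, 5 and 8 were called, and 5484 and 5672 in all. Either replicate block left 0 of 9 for genotype and for the difference between fasting effects.

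Depth did not limit these genes, which had at least 340 counts in each mouse. The edgeR p values set each difference against a spread between mice that was estimated over all 4 groups of 4 or 5 mice. Exact permutation p values rest on the mice of the groups compared. No ratio test was run with a replicate block. Sex was unlabelled for 1 mouse, which was left out of the fit with sex as a covariate.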
